A study of Caenorhabditis elegans with 6 samples.

Results

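Histone genes of Caenorhabditis elegans were followed through small RNAs that co-precipitated with WAGO-4, an Argonaute protein of the germline. The genes were chosen by name: every gene whose symbol starts with his- or hil-, and htz-1. This gave 81 of the 45510 genes in the tables. They comprised 9 linker histone H1 genes (his-24 and hil-1 to hil-8), 17 H2A, 17 H2B, 15 H3 and 16 H4 genes of the core set, 6 H3 variant genes (his-69 to his-74), and htz-1, which encodes the H2A variant H2A.Z.

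Histones package DNA into nucleosomes, and their core types are made mainly in S phase from genes present in many near-identical copies. The mRNAs of these replication-dependent genes end in a stem-loop that the protein CDL-1 binds, rather than in a poly(A) tail, and most of the genes have no intron. Variant and linker histone genes are made as ordinary spliced, polyadenylated mRNAs. In worms, secondary small interfering RNAs are copied by RNA-dependent RNA polymerases from a target transcript and are therefore antisense to it, and the Argonaute CSR-1 and its antisense small RNAs have been linked to histone mRNA processing.

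All 6 libraries came from young adults kept at 20 °C that carried 3xFLAG::GFP::WAGO-4, and each was made from a precipitate with anti-FLAG M2 antibody. No input and no untagged precipitate was analysed here, so a level describes the precipitate and not enrichment. One pair consisted of a first untreated library and a library after lin-15b(RNAi). The other group consisted of an untreated library from animals grown on HT115, a bacterial strain for RNAi by feeding, and of 3 libraries from an oma-1 RNAi lineage: P0 animals on oma-1 dsRNA, their F1 and their F3, with the dsRNA given, per the labels, to P0. The growth text in the labels also differed: it named a temperature series of embryos for HT115 and P0, plates without food for F1 and F3, and UV irradiation of embryos for F3, and whether these steps applied to the sequenced animals is not given in the sources used here.

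Each group holds 1 library, so differences have no replicate check, and p-values are not given. Intervals cover counting error at 95%, exact Poisson for levels, exact conditional binomial for folds and Wilson for shares. The reads carry no molecular identifiers, so PCR copies of 1 molecule may be counted several times and even that error may be understated. Gene-assigned reads ranged from 8667735 to 11309227 per library, and 55.6% (F1) to 77.8% (HT115) of them were antisense in the 5 libraries with separate strands. The first untreated library had a single column of counts, read here as the sum of both strands. Germline markers carried antisense reads, with 11 of 11 at 25 counts per 1000000 (CPM) or more on HT115. That level was reached by 0 of 10 intestine, 0 of 34 sperm, 0 of 5 body wall muscle and 0 of 4 hypodermis markers. Of 5 neuron markers, 1 reached it, and 83.1% of the reads of that list were antisense. Sense reads included somatic transcripts: the 10 intestine markers alone summed to 52920 sense CPM on HT115.

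Reads of the core histones were mostly sense, and summed reads of the H1 genes and of the H3 variants mostly antisense. On HT115, 25834 antisense and 35535 sense reads fell on the 81 genes, which makes an antisense share of 42.1% (41.7 to 42.5). That share was 92.9% (92.5 to 93.3) for the H1 genes and 87.7% (86.7 to 88.6) for the H3 variants. It was 12.5% (12.0 to 13.1) for H2A, 15.6% (14.9 to 16.3) for H2B, 25.3% (24.3 to 26.4) for H3 and 30.4% (29.5 to 31.4) for H4. For htz-1, which marks promoters and regulatory regions, it was 45.3% (41.8 to 48.8). The core types thus lay well below the median protein-coding gene, which had 83.8% antisense reads among 9844 genes with at least 20 reads.

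**Figure D1:**
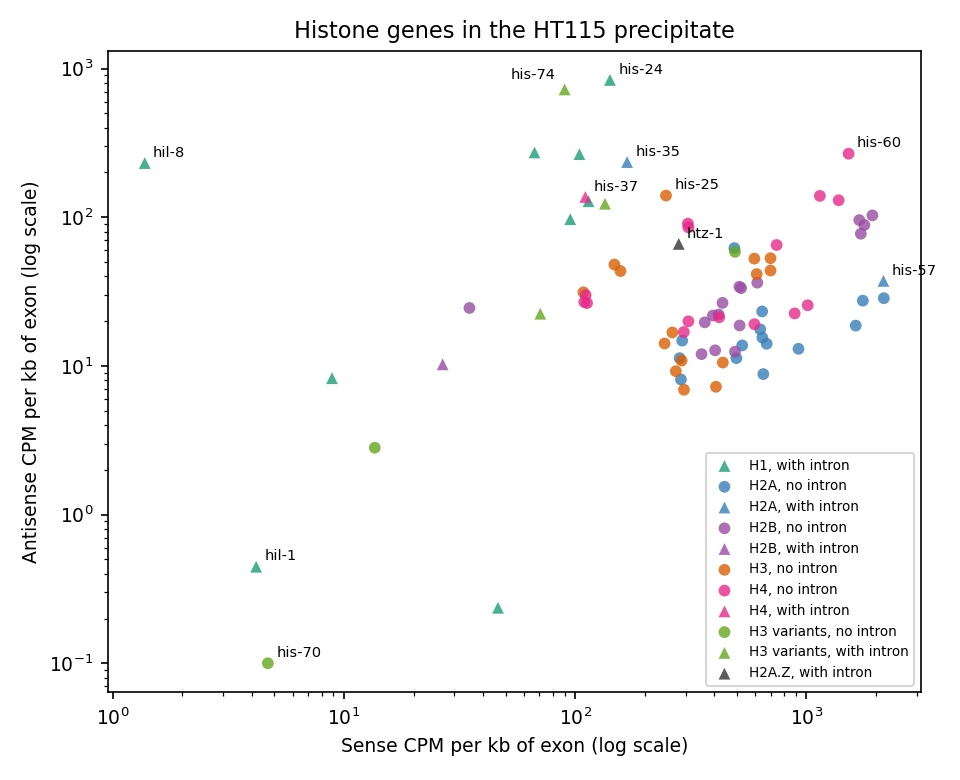
Sense (horizontal) and antisense (vertical) CPM per kb of exon of each histone gene on HT115, both on log scales, coloured by histone type, with triangles for gene models that hold an intron. The core genes crowd at high sense and low antisense levels, while his-24, his-74 and hil-8 stand at high antisense levels; his-70, with 0 antisense reads, is drawn at 0.1.

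Gene structure ran along the same division. In the Ensembl annotation of WBcel235, all 9 H1 genes, htz-1 and 3 of the 6 H3 variants (his-71, his-72 and his-74) have an intron, and so do 4 core genes: his-35 and his-57 (H2A), his-41 (H2B) and his-37 (H4). The 17 members with an intron had an antisense share of 78.7% (78.2 to 79.2) on HT115, and the 64 without had 17.7% (17.27 to 18.05). Of the members with at least 20 reads, 13 of 16 with an intron and 5 of 62 without had more antisense than sense reads. A low share was not common to intronless genes as such: 125 other intronless protein-coding genes had a median share of 84.7% on HT115, and 64.8% of them were over 50%. In F3 the same measure was 13.4% over 192 such genes, so that background itself differed between libraries.

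Within the core set, a cluster on chromosome V had the highest antisense share. It holds his-35, his-41 and his-37, 3 of the 4 core genes with an intron, between 9544659 and 9547607 in WBcel235. Its antisense share on HT115 was 81.4% (79.5 to 83.2), against 9.71% to 34.8% in the other 13 clusters, where members lay less than 5000 bases apart. The 34.8% belonged to the H3 variants his-69 and his-70, with 23 reads (18.8 to 55.1). The highest value of another core cluster was 33.1%. The single genes had 83.1% (his-35), 57.4% (his-41, 68 reads) and 81.3% (his-37). The fourth core gene with an intron, his-57, had 5.73% (4.98 to 6.58), a value that an overlapping gene makes uncertain. Of the 61 core genes without an intron, 5 had more than 50% antisense reads, from his-42 (H3, 50.3%) to his-39 (H2B, 71.2% of 52 reads), so the division by introns has exceptions on both sides. The exons of his-37 overlap those of nstp-10 on the opposite strand, and nstp-10 had 64 sense reads against 434 antisense reads of his-37.

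Most clusters were built from divergent pairs, the arrangement known for these genes; his-69 and his-70, both H3 variants, lay in tandem instead. An H2A and an H2B gene faced away from each other in 16 pairs, his-35 and his-41 among them, 227 to 327 bases apart, and an H3 and an H4 gene in 14 pairs, 234 to 321 bases apart. Of the 60 genes in these 30 pairs, 55 did not have more antisense than sense reads on HT115, and 5 did: his-35, his-41, his-25 (H3, 66.5%), his-13 (H3, 53.3%) and his-56 (H4, 50.9%). In the cluster of his-1 to his-4 on chromosome V, 10.7% (9.41 to 12.2) of 1913 reads were antisense. The largest array, 13 genes on chromosome II, had 33.1% (31.7 to 34.5) antisense reads of 4139.

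The share differed more between libraries than these intervals allow, in the same order as over all genes. Across lin-15b RNAi, HT115, P0, F1 and F3 it was 37.4%, 42.1%, 29.5%, 18.9% and 40.9% for all members together. The H1 genes stayed between 82.7% (F1) and 92.9% (HT115), and H2A between 4.37% (F1) and 13.3% (F3). F1 was the lowest of the 5 libraries for H1, H2A, H2B, H4 and htz-1, and it also had the lowest antisense share over all genes. The lin-15b library stood apart for the H3 types: core H3 had 3.70% (3.38 to 4.06) antisense reads there and 12.0% to 25.3% in the other 4, and the H3 variants had 53.6% (51.4 to 55.8) there and 67.7% to 87.7% elsewhere.

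**Figure D2:**
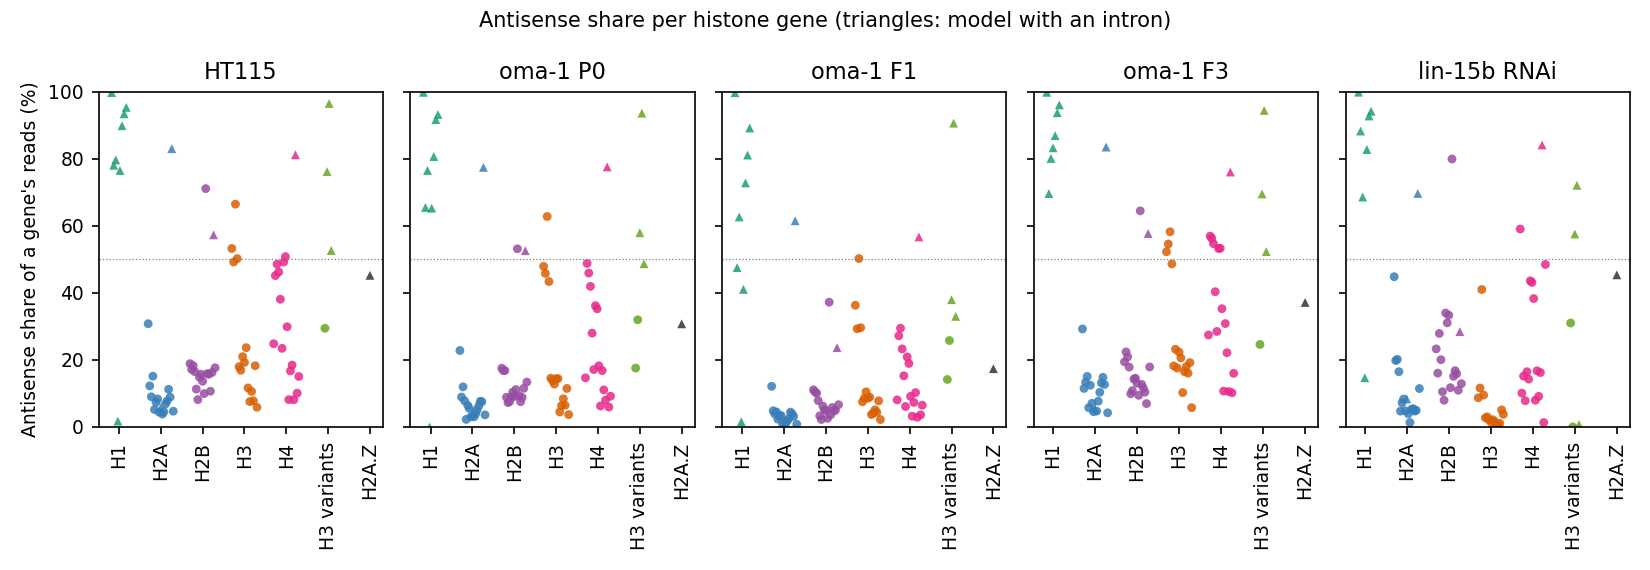
Antisense share (percent) of the reads of each histone gene with at least 20 reads, by type, in the 5 libraries with separate strands; triangles are gene models with an intron and the dotted line is 50%. Most H1 genes sit high and most core genes low; among the intron-holding core genes his-57 lies at 1.79% to 8.37%, and hil-7 lies near 0 where it has 20 reads.

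Per length, the histone genes ranked very high in sense reads and less high, though above the median gene, in antisense reads. Among 19605 protein-coding genes on HT115, the median member stood at percentile 99.0 of sense CPM per kb, with 74 of 81 above percentile 90, and at percentile 73.7 of antisense CPM per kb, with 16 above percentile 90. At 25 antisense CPM or more, 5696 of all 45510 genes (12.5%) were measured on HT115, and so were 22 of the 81 members. These were 6 of 9 H1 genes, 2 of 17 H2A, 4 of 17 H2B, 1 of 15 H3, 6 of 16 H4, 2 of 6 H3 variants and htz-1. Among the 61 core genes without an intron, 10 reached that level, and 60 did so in sense reads.

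The linker histone his-24 was the member with the most antisense reads. It encodes H1.1, an H1 form needed for normal germline development, and lies on chromosome X at 14490094 to 14491119. Its antisense level was 774.1 CPM (754 to 794) on HT115. P0 gave 620.0 (600 to 640), F1 gave 733.5 (711 to 757), F3 gave 694.8 (676 to 714) and lin-15b RNAi gave 1741 (1710 to 1774). The lin-15b library was thus the highest of the 5, and both strands together gave 1835 CPM in the first untreated library. Exons of a non-coding gene, M163.16, overlap his-24 on the opposite strand and had 776 sense reads on HT115 beside 5722 antisense reads of his-24, so that a part of these reads cannot be told apart by strand.

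Antisense reads of the hil genes, H1-like linker histones, lay mainly on 5 of the 8. On HT115, hil-3 had 272.6 and hil-4 265.7 antisense CPM per kb, hil-8 had 231.4, hil-2 had 128.1 and hil-5 had 97.0. In contrast, hil-6 had 49 antisense reads beside 15 sense reads, hil-1 had 3 of 11 reads antisense, and hil-7 had 1 antisense and 56 sense reads. The gene hil-8 was the most one-sided member, with 2951 antisense and 5 sense reads (99.8% antisense, 99.6 to 99.9). Its antisense level was lowest after lin-15b RNAi, at 258.3 CPM, and the HT115, P0, F1 and F3 libraries gave 399.2, 349.2, 435.5 and 430.5 CPM. Over both strands, however, hil-8 was higher after lin-15b RNAi than in the first untreated library (log2 ratio 0.65). In antisense reads hil-5 ran the other way from hil-8, with 285.7 CPM after lin-15b RNAi and 72.1 to 89.9 in the other 4 libraries with strands. The first untreated library was high too, at 272.6 CPM over both strands, where the lin-15b library had 226.3.

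Among the H3 variants, his-74 carried most of the antisense reads. The genes his-71, his-72 and his-74 encode H3.3-type histones, which enter chromatin outside S phase. For his-74, on chromosome V at 12659704 to 12660330, the antisense level was 419.6 CPM (405 to 435) on HT115. The P0, F1 and F3 libraries gave 409.9, 413.8 and 391.7 CPM, and lin-15b RNAi gave 80.4 CPM (73.7 to 87.5). The first 4 of these levels lie close together and the last lies far below them. The first untreated library was low as well, with 61.9 CPM over both strands, so the difference lies between the 2 sets of libraries. For his-72 the values were 78.6, 78.8, 64.2 and 62.3 CPM in the same order and 80.2 CPM after lin-15b RNAi, so the lin-15b library did not stand apart for it. For his-71 there were 98, 76, 71 and 78 antisense reads, and 2 after lin-15b RNAi (0.303 CPM, 0.0367 to 1.09) beside 273 sense reads. The H3-like genes his-69, his-70 and his-73 were low: on HT115 they had 8, 0 and 61 antisense reads, where 0 reads allows up to 3 counts. The annotated model of his-73 codes for 46 residues only.

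For htz-1 the antisense level was 48.6 CPM (43.7 to 53.9) on HT115 and 50.3 CPM after lin-15b RNAi. The 3 oma-1 libraries gave 46.3 (P0), 37.4 (F1, 32.5 to 42.9) and 40.6 CPM (F3). The intervals of HT115 and F1 do not overlap. Its sense level was 205.9 CPM on HT115 and 140.8 to 237.8 CPM in the other 4 libraries with strands.

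Among core genes the antisense level per length on HT115 was highest for his-60 (H4, 267.5 CPM per kb), followed by his-35 (H2A, 235.0). The only measured H3 gene was his-25, at 139.9 CPM per kb. The measured H2B genes ranged from his-66 (77.5) to his-58 (102.9), the measured H4 genes from his-46 (85.4) to his-60, and the measured H2A genes from his-57 (37.3) to his-35. Over all members of a type, the median antisense level per kb was 15.5 CPM for H2A, 24.5 for H2B, 31.3 for H3 and 28.4 for H4, and 128.1 for H1. In sense reads the order of the core types was different, with medians of 643.6 CPM per kb for H2A, 491.1 for H2B, 364.1 for H4 and 288.5 for H3, and 66.7 for H1. The sense level of his-57 (2153 CPM per kb) is uncertain, because klp-12 overlaps its exons on the opposite strand and had 3440 antisense reads beside 3078 sense reads of his-57.

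Short reads from near-identical copies may be split between them in the counts. In Ensembl, 36 members share 14 gene names with one another. For 12 of these names the highest and lowest sense counts of the copies on HT115 differed by 1.005 to 1.195 times (median 1.063), and the antisense counts by 1.06 to 1.85 times (median 1.30). The 2 names outside that range contain his-25, with 425 antisense reads where its least-read namesake had 132, and his-57. In the other libraries copies could lie further apart: the sense counts of his-11, his-15 and his-44 (H2B) ranged from 315 to 815 after lin-15b RNAi, 2.59 times. Whether similar counts come from shared reads or from similar levels was not tested, and values of single copies are uncertain.

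Summed antisense levels of the core and H1 types showed no 2-fold difference between HT115 and the oma-1 generations. H2A had 253.0, 266.0, 237.3 and 263.5 CPM for HT115, P0, F1 and F3. H2B had 238.5, 266.5, 259.5 and 266.4 CPM in that order, H3 had 217.5, 267.1, 243.1 and 217.0, and H4 had 366.5, 406.9, 374.7 and 454.7. The H1 genes had 1850, 1567, 1753 and 1732 CPM. After lin-15b RNAi, antisense H2A was 252.8 CPM, within the range of the other libraries. H3 was 66.8 CPM (60.7 to 73.3), below each of the other 4, and H2B was 436.5, H4 568.9 and H1 2890.5 CPM, above each of them. The first untreated library, the reference of the lin-15b library, has no strands, so these antisense values have no reference of their own. Over both strands it had 2978 CPM for H1, where the lin-15b library had 2232. For H3, H2B and H4 it had 369.9, 704.4 and 841.0 CPM, and the lin-15b library had 1262, 1330 and 1274.

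**Figure D3:**
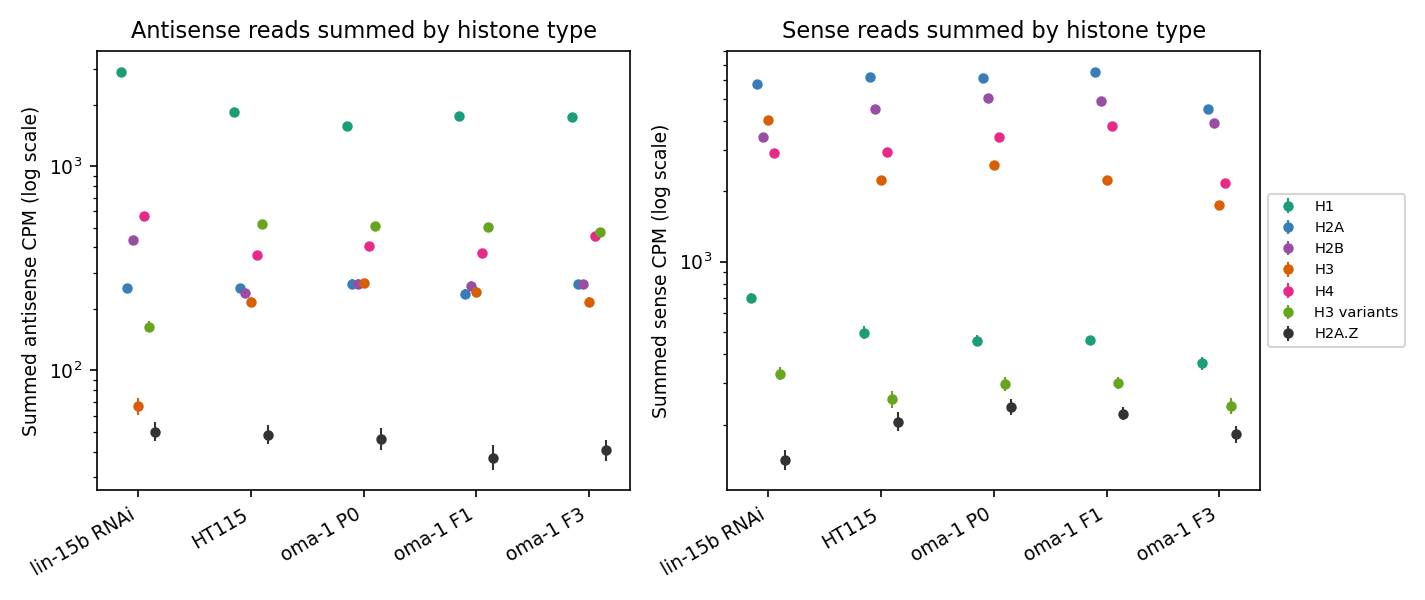
Summed antisense (left) and sense (right) CPM of each histone type in the 5 libraries with separate strands, on log scales; bars are 95% Poisson intervals of counting error. Antisense H3 and H3 variants are lowest and antisense H1 is highest after lin-15b RNAi, and sense sums of the core types are lowest in F3 except for H2B.

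The oma-1 libraries were each compared with the same HT115 library, so that their values share its error. The question was whether dsRNA against oma-1, a gene of oocyte maturation, changed small RNAs of other genes in the treated animals and their descendants. A gene was measured where it had 25 CPM in the higher library, and was called at a difference of 2-fold. No histone gene was called in antisense reads. There were 0 of 23 measured members in P0, 0 of 23 in F1 and 0 of 23 in F3, where 0.563%, 1.93% and 0.916% of all measured genes were called either way. With so low a background, 0 calls among 23 genes says nothing particular about histones. The median log2 ratio of the members was 0.06, -0.08 and 0.09, beside 0.02, -0.03 and -0.01 over all genes. The summed antisense reads of the 81 genes had log2 ratios of -0.07, -0.04 and -0.02.

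Differences under 2-fold were present for several members. For his-24 the folds of P0, F1 and F3 against HT115 were 0.801 (0.768 to 0.835), 0.948 (0.910 to 0.987) and 0.898 (0.864 to 0.932). For his-25 it was 1.45 (1.27 to 1.65), 1.11 (0.964 to 1.29) and 0.662 (0.567 to 0.771), so this gene was above HT115 in P0 and below it in F3. In F3, 6 of 6 measured H4 genes lay above HT115, with a fold of 1.24 (1.18 to 1.31) for all H4 reads. All 4 measured H2B genes lay above HT115 in F3 too, with folds of 1.19 to 1.37. The highest fold among measured members in F3 was that of his-55 (H3), 1.61 (1.28 to 2.02). This gene was measured only through F3, with 27.4 CPM there and 17.0 on HT115. Together with his-45, which shares its gene name, it had 380 antisense reads in F3 and 287 on HT115. For htz-1 the folds were 0.953 (0.812 to 1.12), 0.771 (0.646 to 0.918) and 0.837 (0.715 to 0.979) for P0, F1 and F3. The 12 measured members with an intron had median log2 ratios of -0.05, -0.16 and -0.13 for P0, F1 and F3, and the 11 without had 0.09, 0.08 and 0.36.

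In sense reads, core and H1 histone genes were lower in F3. The summed sense level of the 81 genes was 13161 CPM (13026 to 13297) in F3. It was 16856 CPM (16681 to 17032) on HT115, 18165 for P0, 18407 for F1 and 17315 for lin-15b RNAi. F3 was the lowest of the 5. In P0 and F1, 0 of 74 measured members were called, where 1.63% and 5.70% of all measured genes were called either way. In F3, 5 of 74 were called lower and 0 higher, where 2.24% and 3.01% of all measured genes were called lower and higher. The 5 were hil-7, his-51, his-7, his-21 (all 3 H2A) and his-17 (H3). The 4 core genes had folds of 0.473 to 0.496, just past the 2-fold limit, and his-53 at 0.501 and his-19 at 0.503 lay just inside it. For hil-7 the difference rested on 56 reads against 4. Its sense levels were 26.6, 19.7 and 14.7 CPM for HT115, P0 and F1, 1.45 CPM for F3 and 3.18 CPM for lin-15b RNAi.

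The shift in F3 was spread over the core types and H1 rather than held by the called genes. The median log2 ratio of the 74 members was -0.45, with 65 below 0, beside 0.04 over all genes. By type, the summed fold was 0.731 (0.713 to 0.749) for H2A, 0.737 (0.711 to 0.764) for H4, 0.781 (0.750 to 0.813) for H3 and 0.869 (0.845 to 0.893) for H2B. It was 0.737 (0.675 to 0.804) for H1 and 0.936 (0.834 to 1.05) for the H3 variants. Sense reads of ribosomal protein genes, another abundant mRNA class, moved differently: 75 of 75 measured genes lay above HT115, with a median log2 ratio of 0.41. Sperm markers summed to 508 sense CPM in F3 and to 57.9 on HT115, with 2 of 34 genes measured (msp-36 and msp-40). Body wall muscle markers summed to 4612 and 2435 sense CPM, with 5 of 5 above HT115. Hypodermis markers summed to 582 and 301 sense CPM, with the 1 measured gene above HT115. Not every list rose in this way. Intestine markers summed to 43465 sense CPM in F3 and to 52920 on HT115, with 5 of 8 measured genes above HT115 and 3 below. Of the genes for histone modifiers, 19 of 22 measured lay below HT115 and 3 above. The part of these other transcripts in the lower histone values was not tested.

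In F1 the H4 genes were the type with the largest sense fold, 1.30 (1.26 to 1.34), with 16 of 16 above HT115 and a median log2 ratio of 0.33, beside 0.09 over all genes. With both strands together, 19 of 69 measured members were called higher in F1, where 5.12% of all measured genes were called higher. All 19 were core genes without an intron, from his-58 at 2.02 to his-18 (H4) at 2.50, of which 8 were H4. That library had the largest sense share, 55.6% of its reads being antisense, and in strand-specific reads none of these genes was called.

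**Figure D4:**
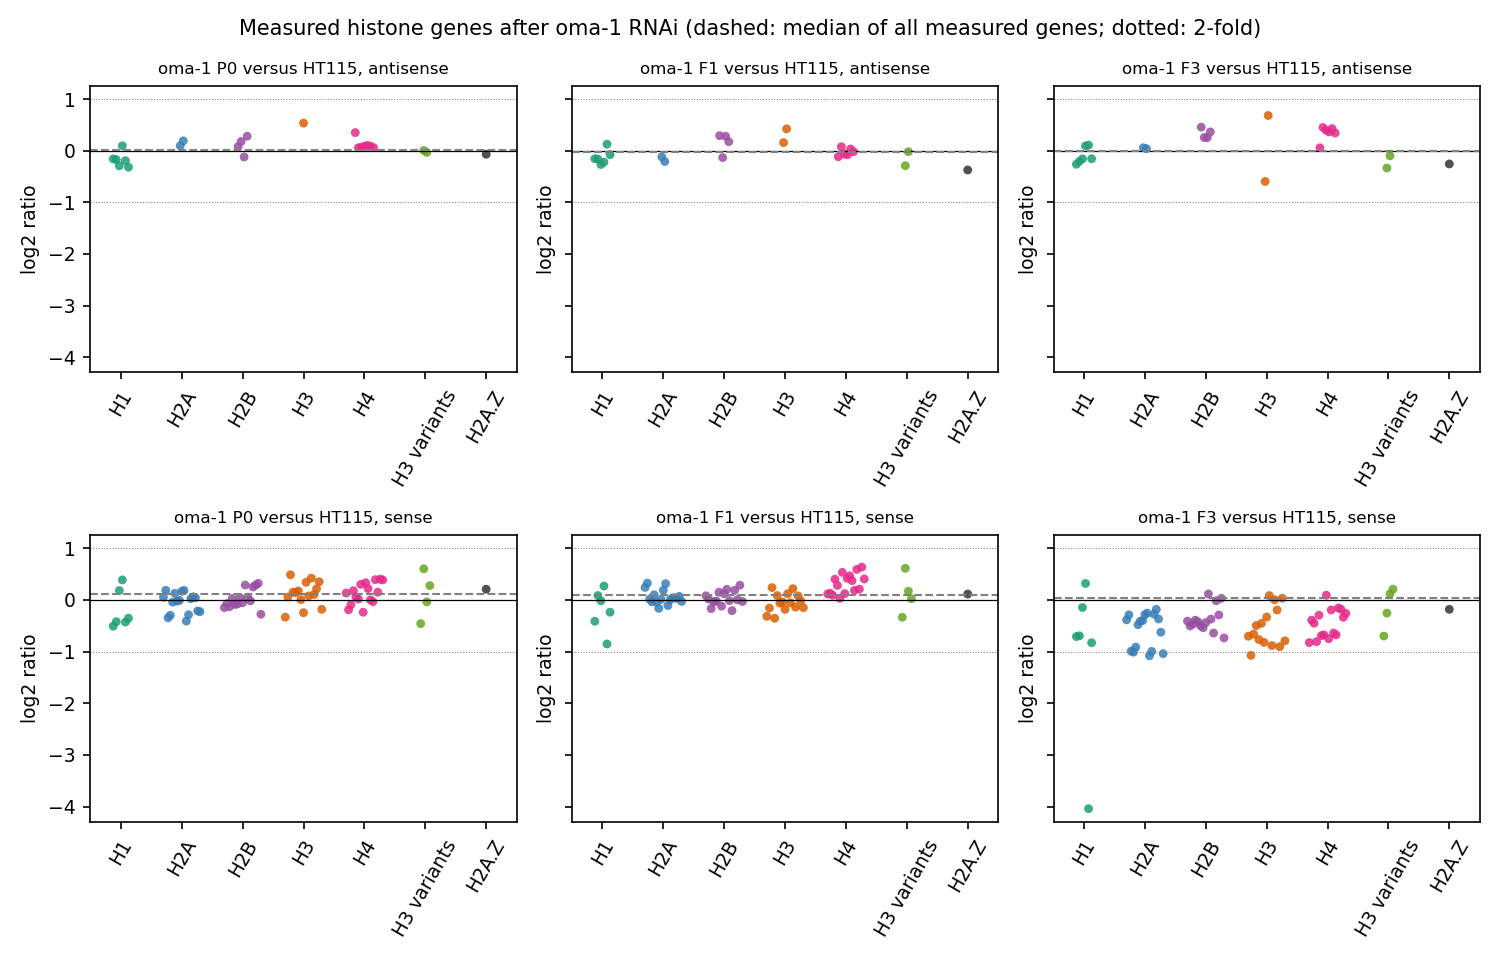
Log2 ratio to HT115 of each measured histone gene in P0, F1 and F3, by type, for antisense (upper row) and sense reads (lower row); the dashed line is the median of all measured genes and the dotted lines are 2-fold. Antisense ratios stay within 2-fold, and in F3 65 of 74 sense ratios are below 0.

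The lin-15b library was compared with the first untreated library over both strands, because the latter has no strands. The gene lin-15B encodes a nuclear protein that represses germline genes in the soma. Core histone genes were higher after lin-15b RNAi: 32 of 62 measured members were called higher and 0 lower, where 6.31% and 1.80% of all measured genes were called in these directions. The median log2 ratio was 1.1 for the members and 0.04 for all genes. All 49 measured core genes without an intron lay above 0, with a median of 1.30, and 5 of 6 measured H1 genes lay below 0. Of the 61 core genes without an intron, 49 reached 25 CPM after lin-15b RNAi and 27 in the first untreated library. Many were thus measured only through the library where they were higher, which tilts these counts and medians upward.

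By type, the core histones went from 369.9 to 1262 CPM for H3 (fold 3.41, 3.29 to 3.53), from 662.2 to 1909 for H2A (2.88, 2.81 to 2.96), from 704.4 to 1330 for H2B (1.89, 1.84 to 1.94) and from 841.0 to 1274 for H4 (1.51, 1.47 to 1.56). The H1 genes went from 2978 to 2232 CPM, a fold of 0.750 (0.737 to 0.763). The widest folds belonged to his-1 (H4; 4.73, 4.09 to 5.49), his-63 (H3; 4.70), his-61 (H2A; 4.60), his-55 (H3; 4.35) and his-45 (H3; 4.05). They were followed by his-29 (H2B; 3.85), his-51 (H2A; 3.75), his-71 (H3 variant; 3.70), his-2 (H3; 3.49) and his-53 (H2A; 3.45). Of the H1 genes, hil-2 had 0.619, hil-4 0.629, his-24 0.704, hil-5 0.830 and hil-3 0.847, and hil-8 had 1.57.

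These higher core values were sense reads for the most part. In the lin-15b library only 15.6% (15.3 to 15.9) of the reads of core genes without an intron were antisense. For his-63, 1671 of 1708 reads were sense. Other transcripts were higher along with them: ribosomal protein genes had a median log2 ratio of 0.99, with 36 of 74 called higher, 7 of 8 measured intestine markers were called higher, and 5 of 5 muscle markers. Whether the histone values share a source with these was not tested, and the strand of the reads in the first untreated library cannot be told apart.

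**Figure D5:**
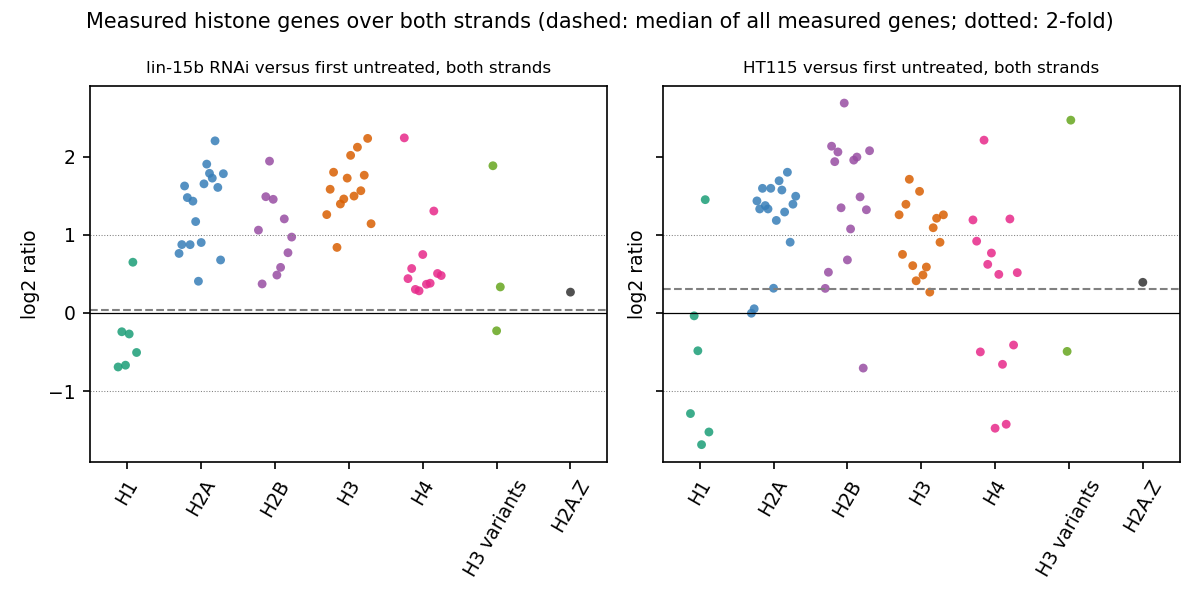
Log2 ratio over both strands of each measured histone gene, by type, for lin-15b RNAi (left) and HT115 (right) against the first untreated library; the dashed line is the median of all measured genes and the dotted lines are 2-fold. Core genes lie above 0 for lin-15b RNAi, and on HT115 H1 and H4 genes reach below -1.

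The 2 libraries without RNAi also differed from each other. On HT115, 36 of 68 measured members were called higher and 5 lower than in the first untreated library, where 18.5% and 9.77% of all measured genes were called in these directions. Of the 81 members, 67 reached 25 CPM on HT115 and 39 in the first untreated library. Many were thus measured only through HT115, which tilts the count toward higher calls. The 5 lower were hil-5 (0.311), his-24 (0.348), his-46 (0.360), his-56 (0.373) and hil-2 (0.410), which are 3 H1 and 2 H4 genes. The widest higher folds were those of his-4 (H2B; 6.46, 5.06 to 8.35), his-74 (5.53, 5.09 to 6.01), his-31 (H4; 4.64), his-20 (H2B; 4.40), his-8 (H2B; 4.23) and his-29 (H2B; 4.18). Then came his-54, his-52 and his-22 (all 3 H2B; 4.00, 3.89 and 3.84) and his-61 (H2A; 3.48). All the H2B genes named here were under 12 CPM in the first untreated library. For his-24 the level was 1835 CPM in that library and 638.9 on HT115, and for his-74 it was 61.9 and 342.2. The summed log2 ratio of 0.17 changed sign to -0.11 and -0.14 under scaling by TMM or median of ratios, so no direction of the sum is given. Both comparisons with the first untreated library share it as reference. Under scaling by total reads, the sum of each type differed from it in the same direction on HT115 and after lin-15b RNAi. The H4 sum on HT115 had a log2 ratio of 0.17, like the sum of all members, and would change sign with it under the other scalings. The HT115 folds were 2.40 for H2A, 1.71 for H2B, 1.83 for H3 and 1.13 for H4. They were 2.50 for the H3 variants and 1.31 for htz-1. The H1 sum was lower in both, with folds of 0.527 on HT115 and 0.750 after lin-15b RNAi.

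The proteins that make and handle histones were represented differently from the histone genes. Of genes for mRNA end formation and the CSR-1 pathway, 11 of 11 reached 25 antisense CPM on HT115. So did 15 of 15 histone chaperones, 3 of 3 centromeric histone genes and 8 of 8 genes of H2A.Z exchange. Histone modifiers had 22 of 24 and histone genes 22 of 81, beside 5696 of all 45510 genes (12.5%). This level was not corrected for gene length. Per kb, the listed genes ran from 1.01 (lsd-1) to 885.7 antisense CPM (hcp-3), and the median histone gene had 26.4. The antisense shares of these lists, in the same order, were 89.2%, 85.9%, 93.8%, 85.1% and 90.8%. None of the listed genes was called against HT115 in P0, F1 or F3, in either strand. The centromeric H3 gene hcp-3 had 885.7 antisense CPM per kb on HT115, unc-85, an ASF1-type chaperone gene, had 788.5, and csr-1 had 395.2. For cdl-1, whose protein binds the histone stem-loop, the antisense level was 1283 CPM after lin-15b RNAi, and both strands gave 1301 CPM in the first untreated library. The HT115, P0, F1 and F3 libraries gave 506.1, 410.0, 492.2 and 420.1 antisense CPM. The values of cdl-1, like those of his-24, were high in the 2 libraries of the first pair and lower in the other 4. After lin-15b RNAi, 1 of 15 chaperone genes (nasp-2, higher) was called and no gene of the other 4 lists. Of all measured genes, 6.31% were called higher and 1.80% lower in that comparison. On HT115 against the first untreated library, 11 of 60 measured genes of these lists (18.3%) were called higher (cpsf-3, rba-1, spr-2, nasp-2, chaf-1, hcp-3, knl-2, zhit-1, ruvb-2, spr-5 and set-32) and 6 (10%) lower (cdl-1, asfl-1, hira-1, set-2, sir-2.1 and dot-1.1). These shares are near the 18.5% and 9.77% of all measured genes.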

How the data were processed

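The authors deposited counts of small RNA reads for each transcript. Both strands have a column in 5 libraries, and the first untreated library has 1 column. Bowtie2 is listed, per the submitters' processing notes. Not given in the sources used here are its version, the build of the genome and the tool that counted reads. The strand of each column was judged from microRNAs, 0.202% to 0.417% of whose reads were antisense.

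Counts were summed per gene, and members were found by symbol through RefSeq locus tags (81 of 81). Gene models came from Ensembl release 115 (WBcel235); the build of the tables was not compared. Histone types were assigned from general knowledge and coding length, since no protein table was at hand. Members and lists were chosen with earlier results of these data known, and the sense comparisons were added after their values were seen.

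CPM divides a count by the total of its strand in that library (both strands where strands were summed, over genes in both tables). For log2 ratios, 0.5 was added to both counts. With 1 library per group a member counted as measured at 25 CPM in the higher library and as called at 2-fold. Named are all linker and variant genes, the highest and lowest measured core gene of each type per length, up to 10 of the widest called members per comparison, and the 3 most abundant or called genes of the other lists, of which only some are written out. Scaling alternatives used edgeR 4.0.16 and DESeq2 1.42.0.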

Additional observations from a re-analysis of the deposited data

How the results depend on the processing

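No paired analysis was possible because each group holds 1 library, and no replicate could be left out. Among 93 values recomputed in all, 44 kept their direction and stayed within counting error or within 1.5 times the count; 16 are the values reported. The log2 ratio of the summed antisense reads moved from -0.07 (P0), -0.04 (F1) and -0.02 (F3) to 0.28, 0.639 and -0.079 with both strands, and to 0.449, 0.805 and 0.092 with both strands and the first untreated library as reference. TMM and median of ratios gave -0.008 and -0.005 for F1. Without his-24, chosen after its values were seen, it was -0.006 in P0 and 0.017 in F3. With both strands and the first untreated library as reference, the count of 0 called genes became 52 of 69 in P0 (48 higher, 4 lower). It became 59 of 70 in F1 (56 higher, 3 lower) and 32 of 63 in F3 (27 higher, 5 lower). The share over all genes is not given for these settings. HT115 itself had 36 of 68 higher and 5 lower against that reference, where 18.5% and 9.77% of all measured genes were called. The count was 19 of 69 in F1 with both strands, where 5.12% of all measured genes were called higher. With no minimum level it was 4, 1 and 3 of 81. For lin-15b RNAi the summed log2 ratio of 0.515 became 0.485 (TMM), 0.48 (median of ratios) and 0.819 without his-24, and the 32 calls became 5 at 4-fold and 21 of 46 with copies of one name summed. For HT115 against the first untreated library 0.171 became -0.11 (TMM), -0.14 (median of ratios) and 0.571 without his-24, and the 41 calls became 6 at 4-fold. Sense sums under TMM and median of ratios were both -0.015 in P0 (reported 0.108), 0.033 and 0.031 in F1 (0.127), and -0.395 and -0.398 in F3 (-0.357). At 4-fold, 1 of the 5 sense calls in F3 was left, and both scalings gave 7. Beyond the settings' own construction, the cause of these shifts was not tested. Summing genes with identical proteins was not run. Members under 25 CPM, 59 of 81 in antisense reads on HT115, are too shallow for a 2-fold statement.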
